A study of Mus musculus with 86 samples.

Results

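The CD45-positive areas of mouse epidermis were compared 24 h and 0 h after a single exposure to ultraviolet B light (UVB). They comprised 14 of the 85 tissue segments of the series, all those that the labels call CD45 and epidermis at these times. Of these, 6 were taken at 24 h and 8 at 0 h. A segment is a chosen part of a tissue section from which barcodes of bound probes are released by light and counted by sequencing (GeoMx digital spatial profiling). At both times the labels number the mice 208, 210 and 219, and whether 1 number stands for the same animal at each time is not stated. They were female C57BL/6 (wild type) mice, 12 to 16 weeks old, that received 500 mJ/cm2 of UVB (290 to 320 nm) on the shaved back under isoflurane. The same mouse numbers were sampled at 0, 6 and 24 h, and no unexposed skin at 24 h is labelled, so that UVB and any other change over the 24 h cannot be told apart. For comparison, segments of PanCK epidermis, CD45 deep dermis, PanCK deep dermis and CD45 adipose from mice of the same numbers were used.

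CD45 is a protein tyrosine phosphatase on the surface of leukocytes. The leukocytes resident in mouse epidermis are mainly Langerhans cells, which take up and present antigen, and dendritic epidermal T cells with a gamma delta receptor. UVB damages DNA in keratinocytes, is followed by the release of cytokines and chemokines, and draws neutrophils and monocytes into the skin, while Langerhans cells leave the epidermis. PanCK is a stain for keratins, the intermediate filaments of keratinocytes, so PanCK-positive areas of the epidermis served as the keratinocyte counterpart of the same sections.

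The files list probes by identifier (RTS and a number) and no table used here pairs an identifier with a gene. The probes below are therefore named by identifier, no role is given to any of them, and the CD45 label could not be checked against leukocyte genes. A segment of this kind can hold several cells, and RNA of neighbouring keratinocytes in it was not measured separately. Fewer cells of a type and less RNA per cell cannot be told apart in such counts. The regions were placed on the scanned tissue and divided by staining, per the labels' protocols.

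Counts were added over the segments of each mouse and time. The sums held 77684, 422250 and 65492 counts at 24 h and 120532, 217912 and 84992 counts at 0 h in mice 208, 210 and 219. Levels are given as CPM (a probe's counts scaled to a common total of 1e6 in each sum), on which 1 count was worth between 2.37 and 15.3 CPM at 24 h and between 4.59 and 11.8 CPM at 0 h. The 5000 probes with the lowest levels in the deep dermis and adipose, used as a floor, averaged 33.2 CPM per probe at 24 h and 25.7 CPM at 0 h in CD45 epidermis. They made up 16.6% ± 0.606 of the counts at 24 h and 12.86% ± 0.175 at 0 h (SD, n = 3 each).

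At 24 h, the largest changes in CD45 epidermis, on the TMM scale, were 14 rises of 16-fold or more, led by RTS0064867, RTS0063607, RTS0069052 and RTS0081477, while the largest fall, of RTS0069819, was 13.7-fold. Of the 907 probes with enough counts to be tested, 472 (52.0%) differed between 24 h and 0 h at an adjusted p under 0.05. Of these, 228 (25.1% of those tested) rose and 244 (26.9%) fell. The test was edgeR's quasi-likelihood F test on the sums, with the mouse as a block and Benjamini-Hochberg adjustment over all tested probes, and "rose" and "fell" below mean that a probe passed it. The other 19268 listed probes were too low to be tested.

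On this scale the rises ranged higher in size than the falls. Among the rises, 14 were of 16-fold or more, 10 of 8- to 16-fold, 85 of 4- to 8-fold, 102 of 2- to 4-fold and 17 smaller. Among the falls there were 0, 12, 43, 166 and 23 in the same classes. The 228 risen probes together held 9.56% ± 0.883 of all counts at 24 h and 3.35% ± 0.880 at 0 h. The 244 fallen probes held 3.01% ± 0.519 at 24 h and 14.2% ± 1.17 at 0 h (SD, n = 3 each). These shares describe how the probes were chosen and are not a test. A median risen probe stood at 219.6 CPM at 24 h and 84.3 CPM at 0 h, and a median fallen probe at 75 CPM at 24 h and 358 CPM at 0 h. Of the 244 fallen probes, 100 ended below 2 times the floor.

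**Figure D1:**
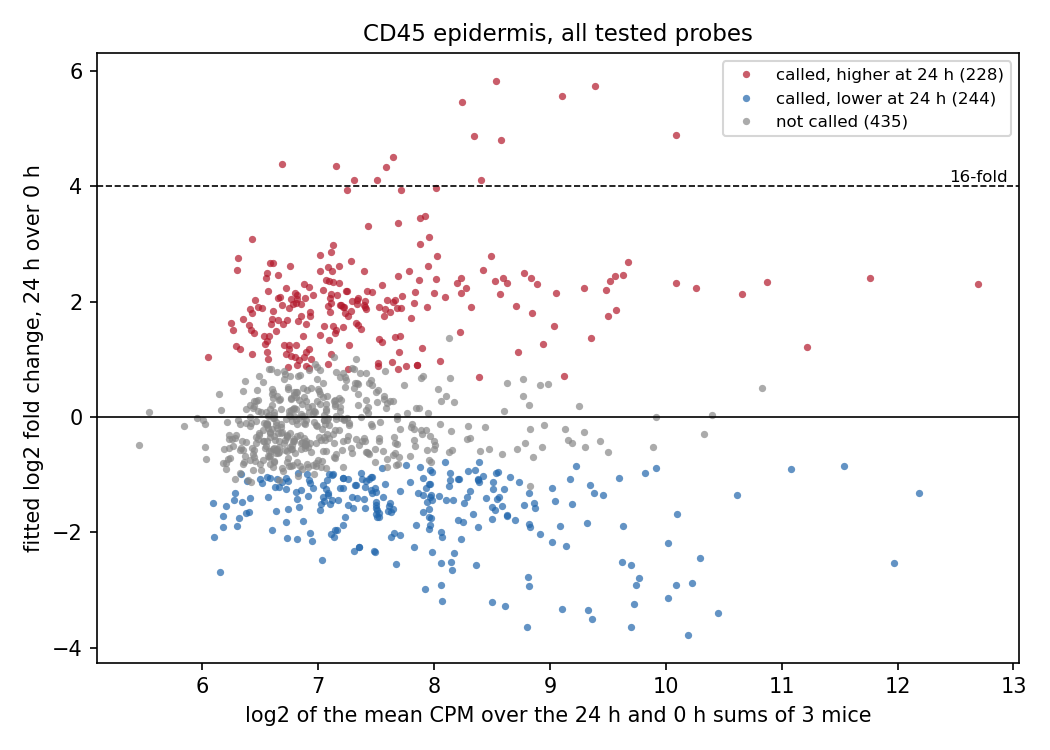
Each point is 1 of the 907 tested probes in CD45 epidermis. The horizontal axis gives the log2 of its mean CPM over the 24 h and 0 h sums of 3 mice, the vertical axis its fitted log2 fold change (24 h over 0 h). The dashed line marks 16-fold: 14 probes lie above it, and the lowest lies at -3.78.

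The sizes depend on how the sums were put on a common scale. The fit scaled the sums by TMM (trimmed mean of M values), and its log2 fold changes lay 0.58 above those of the mean CPM in the median over the tested probes. On that scale the median log2 fold change of all tested probes was -0.21. With scaling to total counts it was -0.81, with 172 rises and 447 falls, of which 7 and 4 were of 16-fold or more. With scaling to the floor probes it was -1.17, with 138 rises and 542 falls, of which 4 and 13 were of 16-fold or more. Thus the larger size of the rises depends on the scale. In ratios of mean CPM, RTS0081052 was 23.1 and RTS0069819 21.4 times as high at 0 h as at 24 h, and RTS0064867 was 42.6 times as high at 24 h as at 0 h. All 14 large rises and all 10 of the largest falls were called under both of these scalings as well. Without mouse 210, whose 24 h sum was the deepest, 312 probes were called, 186 higher and 126 lower.

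The probe with the largest rise was RTS0064867, at 849.6, 744 and 580.2 CPM at 24 h in mice 208, 210 and 219, against 0, 27.5 and 23.5 CPM at 0 h. Its fitted log2 fold change was 5.83 (SE 0.47), or 56.9-fold (adjusted p = 7.01e-08), and 6.61 without mouse 210. The 3 values at 24 h lay close together, and the 0 h values were near the floor mean or at 0. Mouse 208 had no count at 0 h, which at 120532 counts allows a level of up to 24.9 CPM (3 counts, counting error only). RTS0063607 had 1429, 1833 and 641 CPM at 24 h and 24.9, 27.5 and 70.6 CPM at 0 h, for a fitted log2 fold change of 5.73 (SE 0.47) and an adjusted p of 7.04e-08. Its level at 24 h varied more between mice, with mouse 219 the lowest at 24 h and the highest at 0 h, and without mouse 210 the log2 fold change was 5.12. RTS0069052 had 747, 1409 and 1038 CPM at 24 h and 33.2, 41.3 and 23.5 CPM at 0 h, for a fitted log2 fold change of 5.56 (SE 0.35) and an adjusted p of 6.02e-09. Here mouse 219 was not the lowest at 24 h, and the 3 mice were within a factor of 2 of each other at both times.

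RTS0081477 had 747, 888 and 122 CPM at 24 h and 24.9, 22.9 and 11.8 CPM at 0 h (log2 fold change 5.46, SE 0.56, adjusted p = 6.06e-07). Its rise was uneven, since mouse 219 reached only 122 CPM at 24 h. RTS0077444 was the most abundant of the 14, with 2175, 2783 and 1237 CPM at 24 h and 49.8, 161 and 106 CPM at 0 h (log2 fold change 4.89, SE 0.35, adjusted p = 2.48e-08). Together with RTS0063533 it was 1 of 2 of the 14 that stood above 2 times the floor at 0 h, with 50 counts in all. RTS0078277 had 798, 519 and 549.7 CPM at 24 h and 16.6, 36.7 and 35.3 CPM at 0 h (log2 fold change 4.88, SE 0.39, adjusted p = 6.19e-08). RTS0076954 had 1043, 673 and 458 CPM at 24 h and 41.5, 36.7 and 35.3 CPM at 0 h (log2 fold change 4.80, SE 0.36, adjusted p = 3.21e-08). In both, mouse 208 was the highest at 24 h.

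The remaining 7 large rises were lower in level or smaller in fold. RTS0071885 averaged 377 ± 103 CPM at 24 h and 24.1 ± 7.78 CPM at 0 h, a log2 fold change of 4.52 (SE 0.39). RTS0063533 averaged 619 ± 298 CPM at 24 h and 57.7 ± 32.2 CPM at 0 h, a log2 fold change of 4.11 (SE 0.46). The other five, RTS0064868, RTS0076903, RTS0074112, RTS0066988 and RTS0076972, averaged between 192 and 357 CPM at 24 h and between 14.04 and 35.2 CPM at 0 h. Their fitted log2 fold changes were 4.39 (SE 0.45), 4.35 (SE 0.47), 4.34 (SE 0.39), 4.11 (SE 0.45) and 4.10 (SE 0.52). Without mouse 210 that of RTS0066988 was 3.40. RTS0064868, whose number follows that of RTS0064867, was the least abundant of the 14 at 24 h. Over the 14 rises, adjusted p-values ran between 6.02e-09 and 5.56e-06 (edgeR).

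At 0 h, 12 of the 14 probes averaged under 2 times the floor, and 12 had fewer than 10 counts in every mouse. Their fold changes therefore rest on 6 to 50 counts at 0 h over all mice, and whether a probe stood above the floor probes at 0 h was not tested. For RTS0064867 the pooled counts, 418 at 24 h and 8 at 0 h, gave a ratio of 39.1 per total count with an exact 95% interval of 19.7 to 91.2. For RTS0077444 the ratio was 21.3 with an interval of 16.1 to 28.9. Both intervals cover counting error only. A level of 118 CPM in 3 sums was needed for a probe to be tested, and 12 of the 14 reached it in the 24 h sums alone, so that they could enter the comparison only by being higher there. For these the 3 mice at 24 h could not overlap those at 0 h. In all, 14 of the 14, chosen for their rise, and 19.6% of all tested probes were higher in every mouse at 24 h than in any at 0 h, from which nothing is read.

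**Figure D2:**
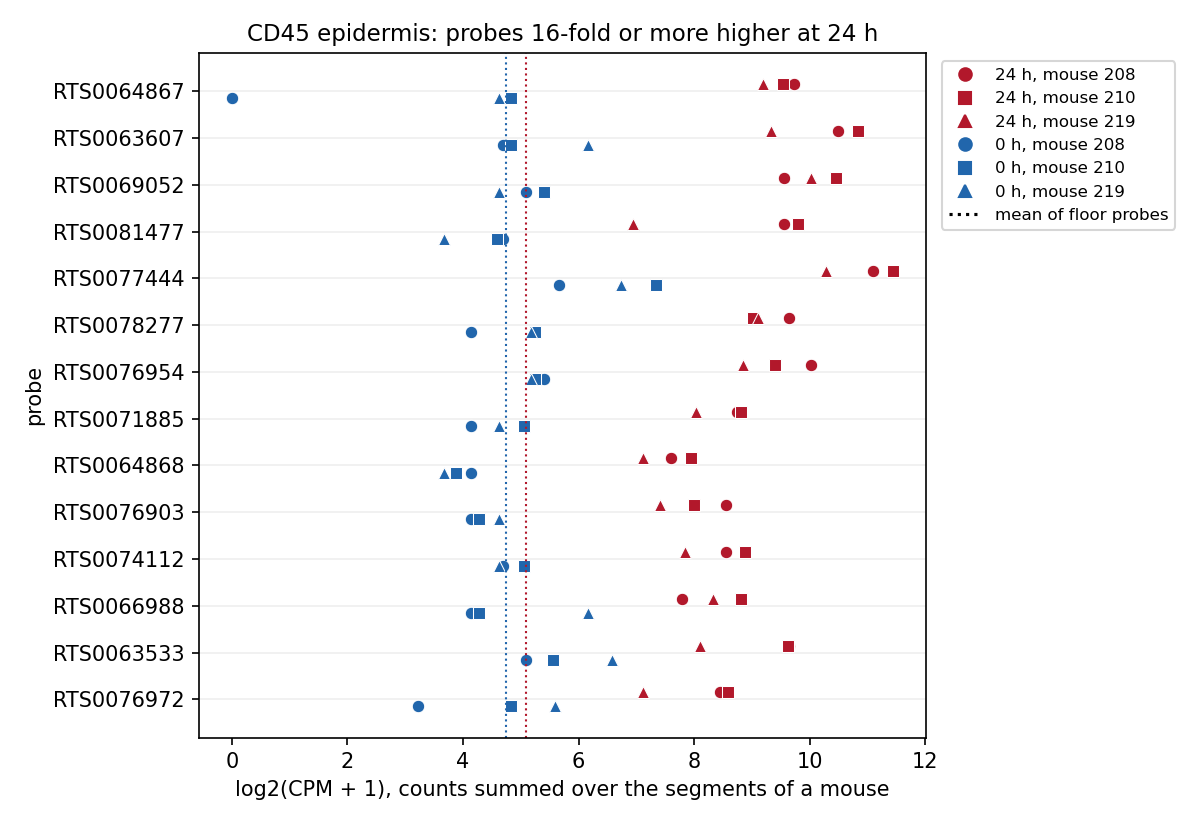
Level of each of the 14 largest rises in CD45 epidermis, as log2(CPM + 1), with 1 marker per mouse (n = 3 at each time) and dotted lines at the mean level of the floor probes. At 24 h (red) every marker lies to the right of every 0 h marker (blue) of the same probe, and 0 h markers cluster about the floor.

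The single segments that make up the sums are given as a description. For RTS0064867 the lowest, median and highest of the 6 segments at 24 h were 574, 702 and 1017 CPM, against 0, 21.0 and 40.01 CPM in the 8 segments at 0 h. RTS0077444 had 825, 1995 and 3232 CPM at 24 h and 39.3, 110.4 and 197 CPM at 0 h. For 13 of the 14 probes no segment at 24 h was as low as the highest at 0 h. This held for 8.71% of all tested probes, but the 14 were chosen on the sums of these segments, so the counts are not compared. The exception was RTS0066988, with 78.6, 352 and 475 CPM at 24 h and 0, 25.6 and 121 CPM at 0 h. Segments of 1 mouse share their source and are not replicates. Between mice, the level at 24 h was lowest in mouse 219 for 11 of the 14 probes and highest in mouse 210 for 9 and in mouse 208 for 5.

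The large rises did not pass the test at 6 h. None of the 14 was called between 6 h and 0 h by edgeR or by DESeq2, and 2 had an unadjusted p under 0.05 in edgeR. Their fitted log2 changes at 6 h lay between -1.34 (RTS0064868) and 1.19 (RTS0074112). RTS0064867 averaged 17.0 ± 14.9 CPM at 0 h, 24.3 ± 16.2 CPM at 6 h and 724 ± 136 CPM at 24 h. RTS0077444 averaged 105 ± 55.4 CPM at 0 h, 132 ± 47.8 CPM at 6 h and 2065 ± 779 CPM at 24 h. For both the mean at 6 h lay within 1 SD of that at 0 h, but 12 of the 14 had a positive fitted change at 6 h. RTS0076954 had 41.5, 36.7 and 35.3 CPM at 0 h, 67.1, 73.6 and 103 CPM at 6 h and 1043, 673 and 458 CPM at 24 h, higher at 6 h than at 0 h in all 3 mice (log2 change 1.12, adjusted p = 0.311). The summed level of the 14 was 324, 542 and 600.1 CPM at 0 h and 694, 809 and 765 CPM at 6 h in mice 208, 210 and 219, likewise higher at 6 h in each, with no test of the sum. Among all 907 probes, 18 (1.98%) passed the test at 6 h, of which 5 rose and 13 fell, and 5 passed without mouse 219. The 6 h sums were also the shallowest, at 44694 to 108761 counts.

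In the PanCK epidermis of the same sections the 14 probes were lower at 24 h. Together they summed to 9517 ± 2992 CPM in CD45 epidermis and 993 ± 342 CPM in PanCK epidermis at 24 h (SD, n = 3 each). At 0 h the sums were 488 ± 146 CPM in CD45 epidermis and 338 ± 91.1 CPM in PanCK epidermis. Mean levels at 24 h were 2.79 (RTS0064868) to 18.9 (RTS0081477) times those of PanCK epidermis, with a median of 9.45. The 14 were chosen for high 24 h values relative to 0 h in these same CD45 epidermis sums. Their levels at both times against this and the other compartments are therefore a description. The shares over all 907 probes are given beside them without a reading. All 14 were higher in every mouse of CD45 epidermis than in any mouse of PanCK epidermis at 24 h (19.8% of the 907 probes), and 1 of the 14 was at 0 h (10.6%). RTS0063607 had 1429, 1833 and 641 CPM in CD45 epidermis and 69.3, 98.4 and 60.4 CPM in PanCK epidermis at 24 h. The gap was wide in every mouse.

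PanCK epidermis showed smaller rises of the same probes. Of the 14, 7 had enough counts there to be tested, and all 7 rose at 24 h, by 1.46 (RTS0076954) to 1.97 (RTS0063607) on the log2 scale, where 21.1% of 6076 tested probes were called. RTS0077444, for instance, averaged 146 ± 59.7 CPM at 24 h and 48.9 ± 53.6 CPM at 0 h in PanCK epidermis (log2 fold change 1.63, adjusted p = 0.00891). At 0 h the 14 averaged at most 48.9 CPM there, and none of the 7 passed the filter on its 0 h sums alone. A probe as low at 0 h that did not rise later could not be tested, so that the rise of all 7 is in part built in. Whether the signal in PanCK epidermis came from leukocytes within PanCK areas was not tested.

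The difference between the compartments was tested directly, as the 24 h change in CD45 epidermis minus that in PanCK epidermis, with each biopsy as a block. Since the 14 were chosen for their rise in CD45 epidermis, and those samples enter the difference as well, positive values are in part built in. All 14 were positive, and 10 of the 14 were called, where 3.13% of 2936 tested probes were called in either direction. The largest was that of RTS0081477, 3.67 (SE 0.85, adjusted p = 0.0128), which was 4.44 without mouse 208 and 2.96 without mouse 210. RTS0069052 had 3.47 (SE 0.48, adjusted p = 4.43e-05) and was the only one of the 14 called under all 10 alternatives. RTS0064868, RTS0076903, RTS0063533 and RTS0076972 were not called, at 1.18, 2.14, 1.77 and 2.29 (adjusted p = 0.608, 0.0999, 0.0676 and 0.101). Many of these calls were lost when a mouse was left out: of the 10, 7 were called without mouse 208, 2 without mouse 210 and 3 without mouse 219. Over all probes, 29 differences were positive and 63 negative, against 96 and 23 with scaling to the floor probes, and 47 were called without the biopsy block.

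In CD45 deep dermis the large rises were partly shared. The 14 probes summed to 2501, 8236 and 1589 CPM at 24 h in mice 208, 210 and 219, against 322, 696 and 483 CPM at 0 h. Mouse 210 stood apart at 24 h, as its sum was more than 3 times that of either other mouse. Of the 14, 4 were tested there and all 4 rose, where 9.46% of 624 tested probes were called. None of the 4 passed the filter on its 0 h sums alone, with means of at most 113.7 CPM at 0 h. A probe as low at 0 h that did not rise later could not be tested there, so the rise of all 4 is in part built in. RTS0078277 had 737, 775 and 391 CPM at 24 h and 0, 41.8 and 0 CPM at 0 h in CD45 deep dermis, a log2 fold change of 5.33 (adjusted p = 4.59e-04). Its 0 h level there rests on 3 counts. At 24 h the 2 CD45 compartments overlapped, at 634 ± 211 CPM in CD45 deep dermis and 622 ± 153 CPM in CD45 epidermis, and the difference of the changes was -0.06 (SE 0.57, adjusted p = 0.965). RTS0063607, RTS0069052 and RTS0077444 rose by 4.15, 4.03 and 2.90 there (adjusted p = 0.0102, 0.0186 and 0.0295).

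Against CD45 deep dermis, 3 of the 14 rises were called larger in CD45 epidermis, where 11.2% of 1287 probes were called. They were RTS0081477 at 4.01 (adjusted p = 0.0207), RTS0066988 at 2.79 (adjusted p = 0.0375) and RTS0077444 at 2.41 (adjusted p = 0.0118). Without mouse 208, 210 and 219 the difference of RTS0077444 was 1.72, 3.60 and 1.79, and without mouse 208 and 210 that of RTS0066988 was 2.08 and 3.83. None of these 3 remained called without mouse 219 or without the biopsy block. In every mouse of CD45 epidermis above any mouse of CD45 deep dermis at 24 h were 3 of the 14, as were 12.6% of the 907 probes. At 0 h this held for 1 of the 14, as for 18.9%. Over all probes, 99 differences were positive and 45 negative, against 79 and 62 with upper quartile scaling, 36 and 215 with scaling to total counts and 16 and 238 with scaling to the floor probes. Which compartment changed more in general therefore depended on the scale, and without mouse 208, 210 or 219 the number called was 88, 58 or 13.

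PanCK deep dermis and CD45 adipose each held lower mean levels of all 14 at 24 h than CD45 epidermis. The 14 probes summed to 771 ± 177 CPM at 24 h and 492.9 ± 69.3 CPM at 0 h in PanCK deep dermis, and to 1139.9 ± 349 CPM at 24 h and 1107 ± 200.4 CPM at 0 h in CD45 adipose. All 3 mice of CD45 epidermis were above all 3 of PanCK deep dermis for 13 of the 14 at 24 h (20.8% of the 907 probes) and for 3 at 0 h (15.1%). The exception at 24 h was RTS0076972, with 374, 84.1 and 122 CPM in PanCK deep dermis. In PanCK deep dermis 1 of the 14 was tested, RTS0066988, and it fell by 1.99 on the log2 scale (adjusted p = 0.00307), where 22.6% of 1898 tested probes were called. It averaged 37.4 ± 19.0 CPM at 24 h and 136 ± 31.9 CPM at 0 h there, while it rose in CD45 epidermis. It passed the filter in PanCK deep dermis only through its 0 h sums, so that its fall there is in part built in.

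In CD45 adipose, 4 of the 14 were tested and none was called by edgeR, nor had any an unadjusted p under 0.05, where 2.38% of 839 tested probes were called. All 14 were higher in every mouse of CD45 epidermis than in any of CD45 adipose at 24 h (21.8% of the 907 probes), and 1 of the 14 was at 0 h (21.2%). RTS0076954 averaged 156 ± 79.6 CPM at 24 h and 248 ± 178 CPM at 0 h in CD45 adipose, and RTS0077444 289.6 ± 223 CPM at 24 h and 224 ± 73.5 CPM at 0 h. Both were thus above the floor in CD45 adipose at both times, and at 0 h above their levels in CD45 epidermis. In all, 10 of the 14 averaged higher in CD45 adipose than in CD45 epidermis at 0 h. Their choice favours low 0 h levels in CD45 epidermis, so this count is in part built in. The share over all tested probes was not computed, and nothing is read from the count. Some of these levels rest on few counts, such as the 3 of RTS0064867 in CD45 adipose at 0 h.

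**Figure D3:**
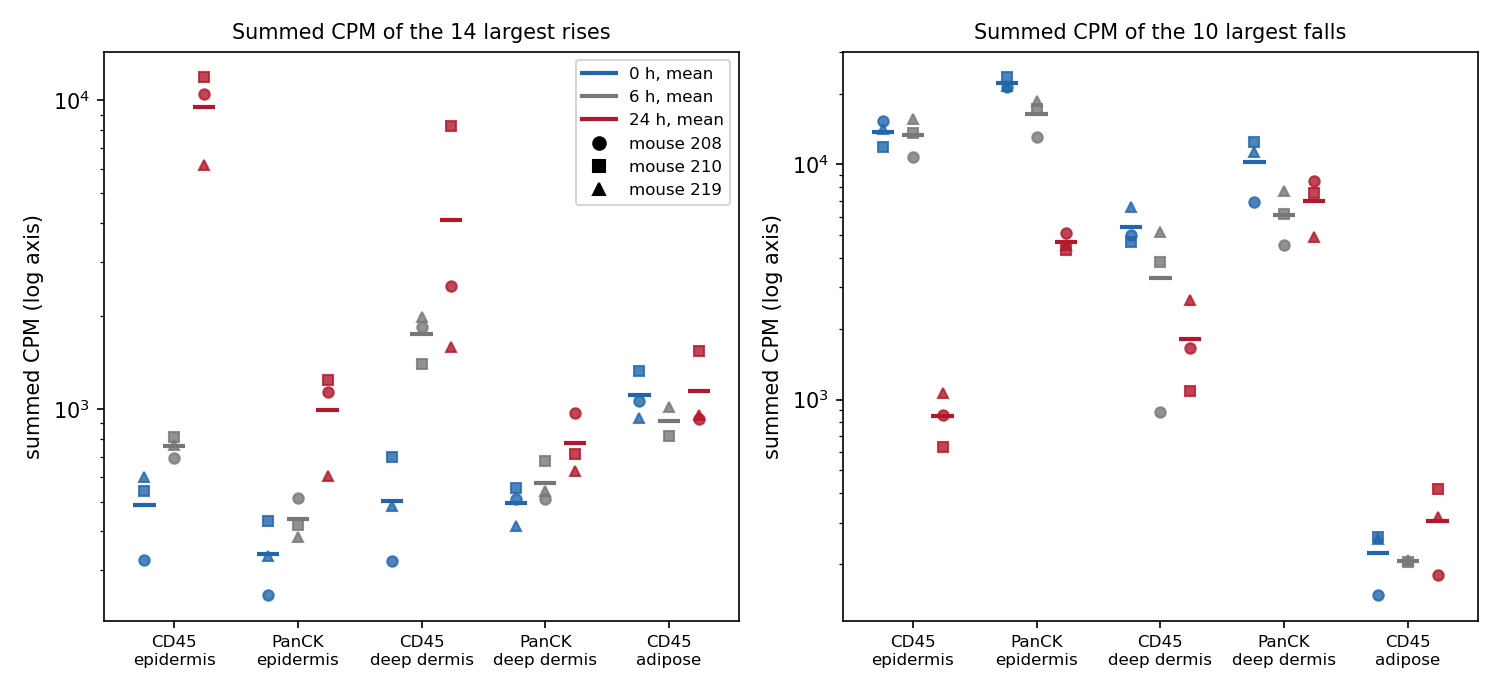
Summed CPM (log axis) of the 14 largest rises (left) and the 10 largest falls (right) of CD45 epidermis in each compartment at 0, 6 and 24 h, with 1 marker per mouse (n = 3, or 2 in CD45 adipose at 6 h) and lines at the means. The rises stand at 9517 ± 2992 CPM in CD45 epidermis at 24 h, above all other compartments in mean, and mouse 210 is alone near that level in CD45 deep dermis.

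The 10 largest falls in CD45 epidermis ran between -3.78 and -3.20 on the log2 scale, with adjusted p-values of 1.74e-07 to 4.65e-06 (edgeR). Together they summed to 862, 628 and 1069 CPM at 24 h and 15232, 11812 and 14190 CPM at 0 h in mice 208, 210 and 219. Their means lay between 45.5 and 175 CPM at 24 h and between 671 and 2626 CPM at 0 h. Since 4 of the 10 ended below 2 times the floor, the size of those falls is limited by the floor. A fall of this size can be measured only from a high level at 0 h, since a probe needed 118 CPM in 3 sums to be tested, and 5 of the 10 reached that in no 24 h sum. All 10 were lower in every mouse at 24 h than in any at 0 h, as were 50.5% of the tested probes, a count that their choice largely fixes. For 9 of the 10 every segment at 24 h was below every segment at 0 h, which held for 20.6% of the tested probes.

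RTS0069819 had 64.4, 97.1 and 153 CPM at 24 h and 2821, 1836 and 2059 CPM at 0 h, for a fitted log2 fold change of -3.78 (SE 0.34) and an adjusted p of 1.74e-07. RTS0069794 had 77.2, 45.0 and 168 CPM at 24 h and 1543, 1229.8 and 1918 CPM at 0 h, a log2 fold change of -3.64 (SE 0.32). In both, mouse 219 kept the most signal at 24 h. RTS0069830 had 90.1, 28.4 and 45.8 CPM at 24 h and 1029, 982 and 506 CPM at 0 h (-3.64, SE 0.45). RTS0070033 was the most abundant of the 10 at 0 h, with 180.2, 116 and 229 CPM at 24 h and 3459.7, 2382 and 2035 CPM at 0 h (-3.40, SE 0.33). Every mouse was lower at 24 h for each of these probes. Without mouse 210 the log2 fold change of RTS0069830 was -2.77, and without mouse 219 that of RTS0070033 was -3.99. RTS0069796, RTS0065249, RTS0064745 and RTS0062098 fell by 3.34, 3.28, 3.24 and 3.20 on the log2 scale. Without mouse 219 the change of RTS0069796 was -4.09. RTS0064745 was the probe whose segments overlapped, with 0, 86.3 and 248 CPM as the lowest, median and highest at 24 h and 121, 1029 and 3839 CPM at 0 h.

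**Figure D4:**
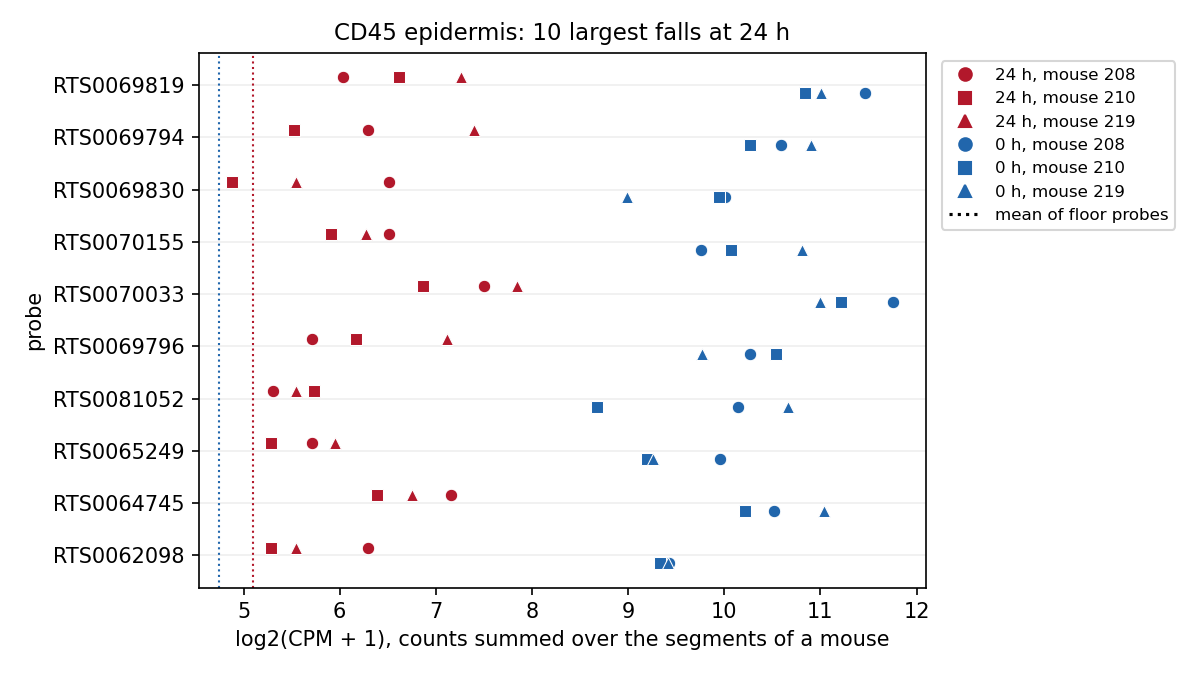
Level of each of the 10 largest falls in CD45 epidermis, as log2(CPM + 1), with 1 marker per mouse (n = 3 at each time) and dotted lines at the mean level of the floor probes. At 24 h (red) all markers lie to the left of the 0 h markers (blue). Markers of RTS0081052, RTS0065249, RTS0062098 and RTS0069830 come near the floor.

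Most of these falls did not pass the test at 6 h. Of the 10, 1 was called at 6 h, RTS0081052, whose log2 change was then -1.97 (adjusted p = 0.00577). It had 1128, 408 and 1624 CPM at 0 h, 201, 138 and 434 CPM at 6 h and 38.6, 52.1 and 45.8 CPM at 24 h. Its 6 h value lay below its 0 h value in every mouse. At 24 h the fitted change was -3.32 (SE 0.39) on the log2 scale, with an adjusted p of 2.50e-06, and -4.29 without mouse 210. By contrast RTS0070155 had 863, 1074 and 1788 CPM at 0 h, 1678, 2694 and 1964 CPM at 6 h and 90.1, 59.2 and 76.3 CPM at 24 h, higher at 6 h than at 0 h in all 3 mice without passing the test (log2 change 0.84, adjusted p = 0.167). The others had log2 changes between -0.58 (RTS0069794) and 0.52 (RTS0064745) at 6 h. Of these, RTS0069794 had 1007, 772 and 1364 CPM at 6 h, lower than at 0 h in all 3 mice. RTS0069819 was likewise lower in all 3 mice (log2 change -0.21), and neither was called.

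Outside CD45 epidermis the fallen probes differed from each other. RTS0081052 was at its highest levels in the CD45 areas of epidermis and deep dermis. At 0 h it averaged 1053 ± 611 CPM in CD45 epidermis and 629.9 ± 643 CPM in CD45 deep dermis, but 18.3 ± 3.85 CPM in PanCK epidermis, 58.3 ± 43.5 CPM in PanCK deep dermis and 47.1 ± 43.3 CPM in CD45 adipose. It fell in CD45 deep dermis too (-2.68, adjusted p = 0.0411), where it averaged 101 ± 110.2 CPM at 24 h. In PanCK epidermis it averaged 35.7 ± 16.0 CPM at 24 h and was too low to be tested there, with the floor probes at 31.2 to 33.8 CPM at 24 h and 16.4 to 20.1 CPM at 0 h. The difference of its changes, CD45 epidermis minus PanCK epidermis, was -5.50 (SE 0.67, adjusted p = 8.00e-06), called under all 10 alternatives. As its PanCK epidermis values lay about the floor at both times, this difference includes the shift of the floor there and its size is not a measured change of the probe in PanCK epidermis.

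RTS0070155 was at its highest levels in the epidermis, at 1242 ± 485 CPM in CD45 epidermis, 5023 ± 1141 CPM in PanCK epidermis, 87.7 ± 47.2 CPM in CD45 deep dermis, 67.9 ± 30.7 CPM in PanCK deep dermis and 18.6 ± 18.7 CPM in CD45 adipose at 0 h. At 24 h it averaged 75.2 ± 15.5 CPM in CD45 epidermis and 288 ± 198 CPM in PanCK epidermis, where its log2 fold change was -4.02 (adjusted p = 1.37e-07). The difference between the epidermal compartments was 0.30 (SE 0.42, adjusted p = 0.828). This difference did not pass the test, and neither did that of RTS0069796, which fell by 3.32 on the log2 scale in PanCK epidermis with a difference of -0.46 (SE 0.33, adjusted p = 0.627). In PanCK deep dermis RTS0069796 averaged 1373 ± 817 CPM at 24 h and 956 ± 554 CPM at 0 h, and the change there was not called (adjusted p = 0.532).

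RTS0069819 and RTS0070033 were at higher levels in PanCK epidermis and fell more in CD45 epidermis. At 24 h RTS0070033 averaged 175 ± 56.7 CPM in CD45 epidermis and 1607 ± 122 CPM in PanCK epidermis, and at 0 h 2626 ± 743 CPM in CD45 epidermis and 5077 ± 1130 CPM in PanCK epidermis. Its 24 h changes differed by -2.52 from PanCK epidermis (adjusted p = 6.44e-07) and by -2.74 from CD45 deep dermis (adjusted p = 0.00183). For RTS0069819 these differences were -2.59 (adjusted p = 6.54e-06) and -2.44 (adjusted p = 0.0141), where the second was -3.25 without mouse 219. Both probes were called against PanCK epidermis under all 10 alternatives. In PanCK deep dermis the 24 h change was -0.29 for RTS0069819 and 0.11 for RTS0070033, and neither was called.

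RTS0069794 and RTS0065249 were lower at 24 h in both epidermal and both deep dermal compartments, while CD45 adipose held little of either. RTS0069794 averaged 472 ± 219 CPM at 24 h and 3673 ± 1180.3 CPM at 0 h in PanCK deep dermis (-3.15, adjusted p = 2.48e-06). In CD45 deep dermis it averaged 133 ± 13.4 CPM at 24 h and 1217 ± 321 CPM at 0 h (-3.40, adjusted p = 0.0183). RTS0065249 fell in PanCK epidermis (-2.21) and PanCK deep dermis (-2.74), and its -2.71 in CD45 deep dermis did not pass the test (adjusted p = 0.102).

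Over the 10 falls, 9 of the 9 tested in PanCK epidermis fell there (21.1% of all tested probes were called in either direction), as did 4 of 8 in CD45 deep dermis (9.46%) and 3 of 8 in PanCK deep dermis (22.6%), while none could be tested in CD45 adipose. The 10 summed to 853 ± 221 CPM in CD45 epidermis and 4662 ± 406 CPM in PanCK epidermis at 24 h, and to 13745 ± 1753 CPM in CD45 epidermis and 22142 ± 1135 CPM in PanCK epidermis at 0 h (SD, n = 3 each). At 0 h, 2 of the 10 were higher in every mouse of CD45 epidermis than in any mouse of PanCK epidermis, 5 than in any of CD45 deep dermis, 5 than in any of PanCK deep dermis and all 10 than in any of CD45 adipose, beside the 10.6%, 18.9%, 15.1% and 21.2% of the 907 probes given above. The differences of the changes against PanCK epidermis were called for 7 of the 10 (3.13% of all tested), of which 7, 5 and 5 were called without mouse 208, 210 and 219. Against CD45 deep dermis 3 of the 10 were called (11.2% of all tested), of which 3, 0 and 1 were called without these mice. The 10 were chosen for their fall in CD45 epidermis, whose samples enter the difference, so negative values are in part built in. That choice also favours high levels at 0 h in CD45 epidermis. Their standing above other compartments at 0 h is thus in part built in as well, and nothing is read from it. How much of the fallen signal in CD45 epidermis came from keratinocytes was not tested.

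**Figure D5:**
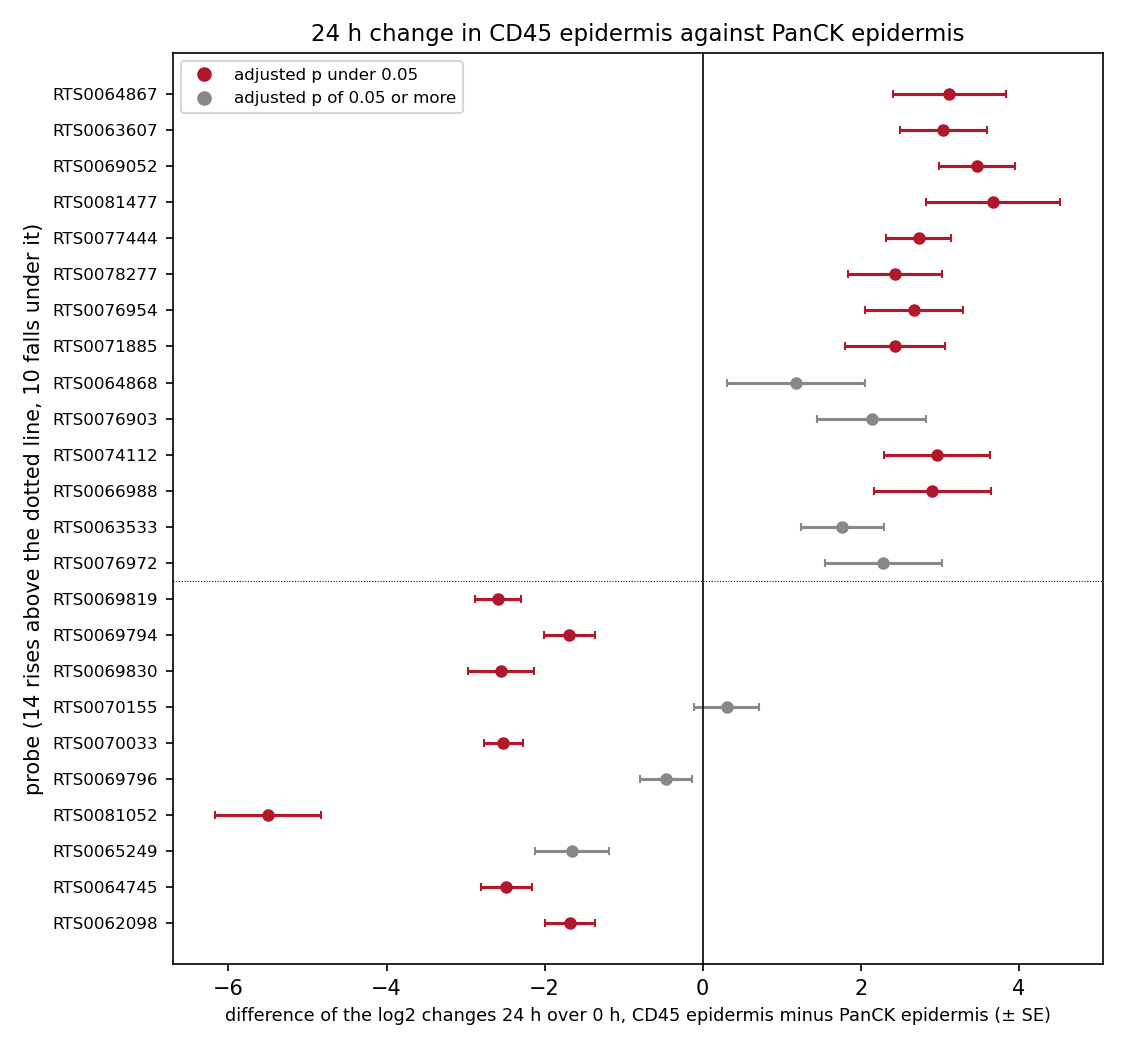
Difference of the fitted log2 changes (24 h over 0 h), CD45 epidermis minus PanCK epidermis, for the 14 largest rises and 10 largest falls, with bars of 1 SE (n = 3 mice) and red where the adjusted p was under 0.05. All 14 rises lie to the right of 0, and RTS0081052 lies farthest to the left at -5.50.

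The most abundant probes that changed moved less. Among the rises these were RTS0067799, RTS0067777 and RTS0064052. RTS0067799 had 10942, 10382 and 8810.2 CPM at 24 h and 1576, 3717 and 4224 CPM at 0 h in CD45 epidermis, for a fitted log2 fold change of 2.31 (SE 0.38) and an adjusted p of 7.65e-05. RTS0067777 had 5587, 5156 and 5359 CPM at 24 h and 788, 1859 and 2118 CPM at 0 h (2.41, SE 0.34, adjusted p = 2.23e-05). In both, mouse 208 was the lowest at 0 h, with segment 2 of that mouse far below the other 7, and the 3 mice lay close together at 24 h. Without mouse 208 the log2 fold changes were 1.86 and 1.99 (adjusted p = 2.28e-04 and 5.33e-05). Both also rose in PanCK epidermis (1.30 and 1.35), and the differences of the changes were 0.48 and 0.51 (adjusted p = 0.148 and 0.143). Against CD45 deep dermis they were 1.82 and 2.02 (adjusted p = 8.64e-05 for both), called in 9 of 10 alternatives. RTS0064052 had 2883, 3211 and 2580.5 CPM at 24 h and 1867, 1725 and 2047 CPM at 0 h, and its log2 fold change of 1.22 (SE 0.28), with an adjusted p of 0.00135, was called in 11 of 15 alternatives, with adjusted p of 1.04e-05 to 0.776. Its level in CPM was higher at 24 h by a factor of 1.54.

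Among the falls the most abundant were RTS0070220, RTS0069791 and RTS0079340. RTS0070220 had 1609, 1876 and 2275 CPM at 24 h and 10437, 5190.2 and 6495 CPM at 0 h (-1.31, SE 0.33, adjusted p = 0.00272), with mouse 208 the highest at 0 h. Without mouse 208 its log2 fold change was -0.93 (adjusted p = 0.027). It also fell in CD45 deep dermis and PanCK deep dermis, by 1.35 and 1.44 on the log2 scale, while its -0.72 in PanCK epidermis did not pass the test (adjusted p = 0.0751). RTS0069791 had 837, 346 and 1557 CPM at 24 h and 9815, 5236 and 6271 CPM at 0 h (-2.53, SE 0.39, adjusted p = 5.19e-05), and its log2 fold change was -3.40 without mouse 219. Like RTS0070155 it was highest in the epidermis, at 27490.5 ± 4219 CPM in PanCK epidermis and 663 ± 250 CPM in CD45 deep dermis at 0 h. Its change differed from that of PanCK epidermis by -2.09 (adjusted p = 7.47e-06), called under all 10 alternatives. RTS0079340 had 1828, 1456 and 1573 CPM at 24 h and 4405, 4419 and 4177 CPM at 0 h (-0.85, SE 0.27, adjusted p = 0.0131), and was called in 12 of 15 alternatives, with adjusted p of 2.36e-05 to 0.268. It fell in PanCK epidermis as well (-1.70) and was not called in either deep dermal compartment.

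Just under the limit of 16-fold lay RTS0075936 and RTS0063532, and just above it RTS0063533 and RTS0076972. RTS0075936 had 463, 635 and 321 CPM at 24 h and 41.5, 50.5 and 47.1 CPM at 0 h (3.98, SE 0.36). RTS0063532 had 399, 289 and 137 CPM at 24 h and 16.6, 22.9 and 47.1 CPM at 0 h (3.94, SE 0.46). These values overlap in size with those of the 2 probes just above the limit, 4.11 (SE 0.46) and 4.10 (SE 0.52), within 1 SE.

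Among all 228 rises, 65 were at least 2-fold higher in CD45 epidermis than in PanCK epidermis at 24 h and 4 at least 2-fold lower, on the log2(CPM + 1) scale. Over all 907 tested probes these numbers were 108 and 173. Among all 244 falls, 8 were at least 2-fold higher and 134 at least 2-fold lower in CD45 epidermis than in PanCK epidermis at 24 h. At 0 h, 20 of the rises were at least 2-fold higher in CD45 epidermis and 7 at least 2-fold lower, and of the falls 25 were higher and 45 lower. Over all 907 probes, 85 were higher and 71 lower at 0 h. Differences of 2-fold were thus fewer at 0 h than at 24 h over all tested probes, which include the rises and falls. In the test of the difference of the changes, 20 of the rises were called larger in CD45 epidermis and 55 of the falls were called deeper, with 2 falls called shallower, against 92 of 2936 probes called in all. The rises and falls were chosen by their change in the same CD45 epidermis sums that enter these levels and differences. Their directions against PanCK epidermis are therefore in part built in, and nothing is read from them.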

How the data were processed

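GeoMx digital spatial profiling released and sequenced the barcodes of probes bound in segments of mouse skin sections. The deposited values are counts per probe and segment. The file headers name GeoMx NGS Pipeline 2.3.3.10 as the software the authors used. Counts came to between 0.88% and 1.62% of the aligned reads in the headers, and how reads were collapsed into counts is not stated there. Neither panel nor annotation nor build of the genome is stated in any label or header used here. A probe without a line in a file was set to 0.

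Within a compartment, the segments of 1 mouse at 1 time were added up, giving 44 sums. Of 85 tissue segments, those of CD45 epidermis held between 16560 and 256121 counts at 0 and 24 h. The no-template control was left out. Sums were scaled by TMM, filtered with filterByExpr (minimum count 10) and tested with edgeR 4.0.16 (R 4.3.3) by the quasi-likelihood F test with the mouse as a block over 0, 6 and 24 h, with Benjamini-Hochberg adjustment and a threshold of 0.05. The difference of 24 h changes between compartments was the interaction term, with the biopsy (mouse and time) as a block. Alternatives used DESeq2 1.42.0, limma 3.58.1 on log2(CPM + 1), other scalings and filters, and each mouse left out. One scaling used the 5000 floor probes, those with the lowest mean share of counts in the deep dermis and adipose sums. The code was tested on simulated counts with known changes.

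The labels give the same mouse number at each time, as their batch, which is where the pairing comes from. Deviations of same-numbered mice correlated at -0.0873, -0.0103 and 0.0534 over the tested probes, and those of different mice at -0.136 to 0.158. The same-numbered values thus lay within the range of the others. With 3 mice and many probes at low counts, these values cannot decide whether the samples were paired. The labels do not say that a number is the same animal at each time. P-values within a compartment rest on the spread left over the 3 times after the mouse block, not on the full spread between the 3 mice. Those of the differences between compartments rest on the spread left after the biopsy block. In both, edgeR shares information on the spread over probes. Segments of 1 mouse were never treated as replicates. No 2 segments held identical counts.

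Probes were named by a rule: every called rise of 16-fold or more, the 10 largest falls, the 3 most abundant rises at 24 h and falls at 0 h, and the 2 rises just under 16-fold. The members and lists were chosen with earlier results of these data known. Counting intervals are exact at 95% and cover counting error only, since no interval accounts for spread between mice.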

Additional observations from a re-analysis of the deposited data

Results flagged for a closer look

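Single segments stood apart from the others in 8 of the 64 groups of 6 or 8 segments examined for the named probes. The measure was the gap to the nearest segment over the whole range. Its limit is set to pass about 1 in 20 groups of independent values. Segments of 1 mouse are not independent and the groups share the same segments, so nothing is read from the number. At 24 h in CD45 epidermis, RTS0078277 was highest in segment 2 of mouse 208 at 1140.7 CPM, with the other 5 segments at 428 to 668 CPM. RTS0069794 was highest in segment 1 of mouse 219 at 354 CPM (9 counts), with the others at 26.8 to 124 CPM. RTS0062098 was highest in segment 2 of mouse 208 at 99.2 CPM (4 counts), with the others at 31.2 to 53.5 CPM. At 0 h, RTS0076972 was highest in segment 2 of mouse 219 at 121 CPM (2 counts), and RTS0063532 in segment 1 of mouse 219 at 157 CPM (4 counts).

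Segment 2 of mouse 208 at 0 h stood apart for 3 of the most abundant probes. RTS0067799 had 697 CPM there and 2870 to 4480 CPM in the other 7 segments. RTS0067777 had 97.6 CPM there (7 counts) and 1701 to 2303 CPM in the others. RTS0070220 had 12892 CPM there and 4954 to 8488 CPM in the others. Mouse 208 at 0 h was shifted in the same direction outside this segment. It was the lowest mouse for RTS0067799 and RTS0067777 in every other compartment, with 1617, 3424 and 4070 CPM of RTS0067799 in PanCK epidermis in mice 208, 210 and 219. For RTS0070220 it was the highest in PanCK epidermis and both deep dermal compartments, but not in CD45 adipose. The cause was not tested. The calls of these 3 probes held without mouse 208, as given above.

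The 24 h change differed between CD45 epidermis and another compartment, by the test of the difference itself (edgeR, adjusted p under 0.05), for 23 of the 32 named probes. Over all tested probes, 3.13% of 2936 were called against PanCK epidermis and 11.2% of 1287 against CD45 deep dermis. The named probes were chosen for their change in the same CD45 epidermis sums, so these differences are in part built in. The values are log2 differences. Among the rises, CD45 epidermis exceeded PanCK epidermis by 3.12 for RTS0064867, 3.04 for RTS0063607, 3.47 for RTS0069052, 3.67 for RTS0081477 and 2.73 for RTS0077444. The same difference was 2.43 for RTS0078277, 2.68 for RTS0076954, 2.44 for RTS0071885, 2.97 for RTS0074112, 2.91 for RTS0066988 and 3.00 for RTS0075936. Among the falls it was -2.59 for RTS0069819, -1.69 for RTS0069794, -2.55 for RTS0069830, -2.52 for RTS0070033 and -5.50 for RTS0081052. It was -2.48 for RTS0064745, -1.68 for RTS0062098, -1.16 for RTS0070220 and -2.09 for RTS0069791. Of up to 10 alternatives, these calls held in 5 (RTS0071885) to 10 (RTS0069052 among others).

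Against CD45 deep dermis the difference was 4.01 for RTS0081477, 2.40 for RTS0077444, 2.79 for RTS0066988, 1.82 for RTS0067799, 2.02 for RTS0067777 and 1.59 for RTS0064052. It was -2.44 for RTS0069819, -2.74 for RTS0070033 and -2.04 for RTS0062098. Of up to 10 alternatives, the calls against CD45 deep dermis held in 2 (RTS0066988) to 9 (RTS0067799 among others).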

How the results depend on the processing

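Among the 15 alternatives for the 24 h comparison of CD45 epidermis, the number of probes called (472) fell to 261 with the stricter filter (mean of 20 counts or more, 425 probes tested) and to 190 with sums thinned once to 44694 counts (387 tested), fewer probes being tested in both. The counts of rises and falls (228 and 244) were 125 and 136 with the stricter filter, 108 and 82 thinned, 138 and 542 with scaling to the floor probes, 104 and 413 with no filter, 172 and 447 with scaling to total counts, 204 and 158 with DESeq2's test, and 100 and 254 with limma. The rises of 16-fold or more (14) were 4 with scaling to the floor probes, 7 with no filter and 7 with scaling to total counts. With no replicate block 480 probes were called, 229 higher and 251 lower. At 6 h the 18 calls became 7 with the stricter filter, 10 with DESeq2 and 2 with limma.

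With 1 mouse left out, between 312 and 547 probes were called, 186 to 304 higher and 126 to 243 lower, with 10 to 16 rises of 16-fold or more, and 5 to 27 were called at 6 h, where leaving out mouse 219 gave the fewest. The 92 differences from PanCK epidermis became 24 to 70, and 47 with no replicate block (biopsy). The 144 differences from CD45 deep dermis became 13 to 88, 111 with no replicate block, 254 with scaling to the floor probes and 251 with scaling to total counts. The cause of these shifts was not tested.

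The 14 large rises were called under every alternative in which they were tested, though 12, 9 and 11 of them were tested with the stricter filter, with thinning and without mouse 210. The 10 largest falls were called under all 15. Leaving out shallow segments removed none from CD45 epidermis, so that 1 of the 15 repeats the fit. Falls of 16-fold or more, 0 in the main setting, numbered 13 with scaling to the floor probes, 12 with no filter, 4 with scaling to total counts, 21 with limma, and 1, 4 and 4 without mouse 208, 210 and 219. RTS0064052 and RTS0079340 lost their call under 4 and 3 of the 15, and no named probe changed sign. Among all 228 rises, 16 had a negative change with scaling to the floor probes, 3 with no filter and 2 with limma, none of them called lower, and no fall turned positive. Scaling to total counts, the thinning, the alternatives at 6 h and the counts by direction, sign and size were chosen after seeing the data. The low counts at 0 h limit the size of the rises, and the floor limits the size of the falls.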

Other observations

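Probes whose identifiers differ by 1 often changed together. Of 171 such pairs of tested probes, the second was among the rises in 32 (18.7%), and among the 25 pairs whose first probe rose it was in 16 (64.0%). For the falls the second was among them in 74 (43.3%), and in 46 of the 74 pairs whose first probe fell (62.2%). What the numbering follows is not stated in the labels or headers.

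RTS0067777 and RTS0067799 were the pair of most abundant rises. Over the 44 sums of all compartments and times RTS0067777 stood at 0.367 to 0.670 of RTS0067799, with a median of 0.538. No other pair was compared. Single segments could lie outside this range: in CD45 epidermis of mouse 208 at 0 h, segment 2 had 97.6 and 697 CPM of the 2 probes, and segment 1 had 1804 and 2870 CPM. Of the named probes, RTS0069791 had 1 count in the no-template control, which held 19 counts in all, and the others had none.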
